A study of Zea mays with 2 samples.

Results

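Merged loci are stretches of the maize (Zea mays) genome to which the deposited tables assign 3 or more expressed features under one and the same position. Each row of the tables is a feature with a chromosome, a start and an end, and a locus was taken as a position on chromosomes 1 to 10 that is listed for at least 3 rows. There were 634 such loci, 1.09% of the 58260 positions on these chromosomes, and they held 2046 of 65315 features. Expression was measured by RNA sequencing of endosperm at 19 days after pollination, in 1 library of the fl4 (floury4) mutant and 1 library of the wild type (WT). The labels give no inbred background and no count of ears. The design text mentions triplicate profiles, whereas each file gives a single value for a feature. All values are therefore given without an error, no test could be made, and every difference describes these 2 libraries. The rows carry no gene names, so the endosperm label was not checked against marker genes, and the loci are called by position. No source used here names the genome build of the positions.

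The endosperm of a maize kernel fills with starch and with zeins, its main storage proteins, and floury mutants form soft, opaque kernels. In genomes as large as that of maize most genes stand well apart, but some overlap on opposite strands, lie inside the intron of another gene, or are joined into one stretch by read-through or by the way gene models were drawn. A quantification program can give all of them one position and still estimate each separately. The summed level of such a locus then says how much transcript the stretch yields per unit of feature length. The share of its highest feature says how far one member dominates. A change of the sum with unchanged shares means that the features moved together. A changed share means that they moved in unequal proportion, which can be in the same direction. The level is FPKM (fragments scaled to feature length and to the mapped fragments of the library), as scaled by the authors. In bulk tissue fewer cells of a type and less RNA per cell cannot be told apart.

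Of the 634 loci, 525 held 3 features, 85 held 4, 16 held 5, 6 held 6, 1 held 7 and 1 held 8. The loci were long, with a median span of 8826 bp (quartiles 4870 and 18108 bp, range 631 to 166694 bp), against 3758 bp for spans with 2 features and 1680 bp for spans with 1. The median span was 7642 bp with 3 features, 16952 bp with 4 and 41227 bp with 5 or more. They lay on all 10 chromosomes, from 0.818% of the positions of chromosome 6 to 1.34% of those of chromosome 1. Only 1 of them overlapped a neighbouring span.

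The merged loci together carried 48981 FPKM in fl4 and 44533 FPKM in WT, which was 4.32% and 4.34% of the total FPKM of each library. The ratio of these sums was 1.10, and that of all features of the series was also 1.10. The sum of the median locus was 19.8 FPKM in fl4 and 18.9 FPKM in WT, compared with 8.03 and 7.97 FPKM for spans with 2 features and 1.23 and 1.17 FPKM for spans with 1. By the higher of the 2 libraries, 21 loci stayed below 1 FPKM, 151 reached 1 to 10 FPKM, 368 reached 10 to 100 FPKM, 86 reached 100 to 1000 FPKM and 8 reached 1000 FPKM or more. A value of exactly 0 was listed for 35 of the 2046 features in fl4 (1.71%) and for 47 in WT (2.30%). Of the features on spans with fewer members 2.60% in fl4 and 3.95% in WT stood at 0. In a table without read counts an exact 0 can be a failed estimate.

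The 10 most abundant loci held 37.0% of the FPKM of all merged loci in fl4 and 34.5% in WT, and 9 of the 10 had the higher sum in fl4. This count holds for the scaling of the authors, in which all features together were 1.10-fold higher in fl4. The ratios of the third and the tenth locus, 1.02 and 1.06, were below that. The internal make-up of the 10 loci was almost the same in both libraries, with a largest difference in the top share of 3.25 percentage points. The most abundant locus, on chromosome 1 between 271106010 and 271114338, had a sum of 3799 FPKM in fl4, against 3118 FPKM in WT. Its 3 features were at 1736, 1392 and 671 FPKM in fl4, and at 1427, 1153 and 538 FPKM in WT. All 3 were higher in fl4 in nearly equal proportion, so that the first feature held 45.7% of the locus in fl4 and 45.8% in WT.

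The second locus (chromosome 1, 46686895 to 46689522) was the only one of the 10 with a lower sum in fl4, 1969 FPKM against 2550 FPKM in WT. The difference lay in its top feature, which stood at 1751 FPKM in fl4 and 2334 FPKM in WT, while a second feature was at 217 and 215 FPKM. The third locus (chromosome 9, 11496010 to 11502772) reached 2369 FPKM in fl4 and 2319 FPKM in WT, a log2 ratio of 0.03. The fourth (chromosome 10, 63613517 to 63622627) had the widest ratio of the 10, with 2111 FPKM in fl4 and 1096 FPKM in WT, or 1.93-fold higher in fl4. Both of its abundant features took part, at 1278 and 822 FPKM in fl4 and at 680 and 405 FPKM in WT. The remaining features of that locus were nearly level, at 7.78 and 3.21 FPKM in fl4 and at 8.26 and 3.31 FPKM in WT.

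**Figure D1:**
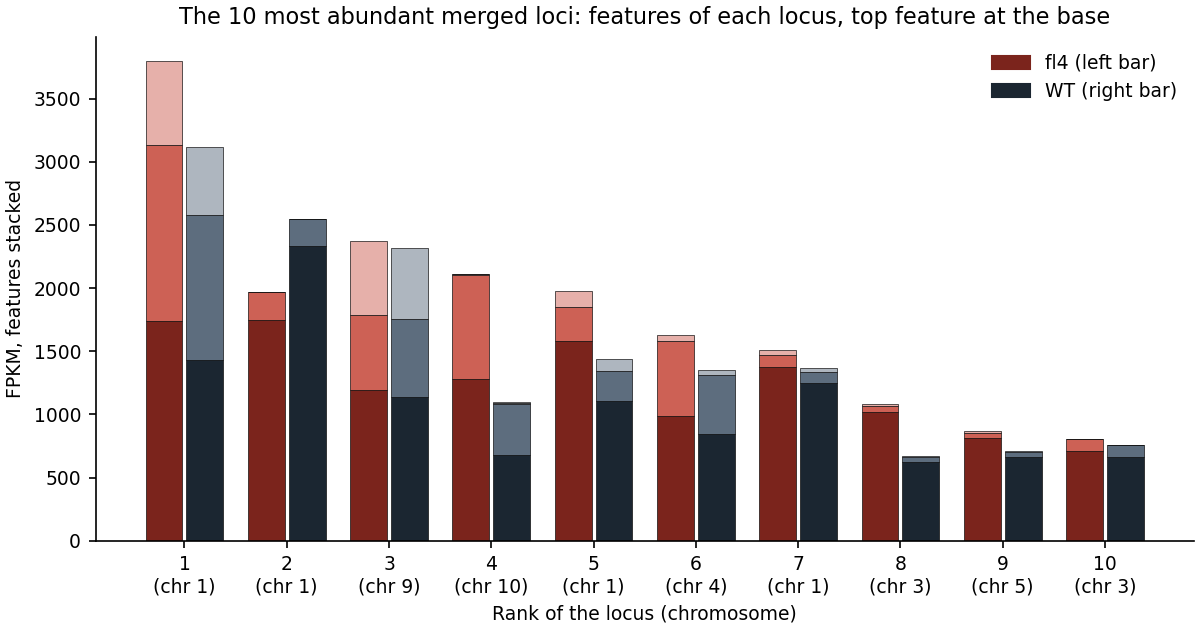
FPKM of each feature, stacked, in the 10 merged loci with the highest sums, with fl4 in the left bar and WT in the right bar of each pair and the top feature at the base. On the scaling of the authors the fl4 bar is higher in 9 of 10 pairs. The proportions within a pair differ by at most 3.25 percentage points for the top feature.

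The other 6 loci of this group ranged from 802 to 1976 FPKM in fl4 and from 674 to 1440 FPKM in WT. Among them the locus on chromosome 3 from 206318416 to 206336702 differed most, with 1083 FPKM in fl4 and 674 FPKM in WT, a log2 ratio of 0.68. A single feature gave 93.9% of that sum in fl4 and 92.5% in WT. The locus on chromosome 1 from 7192640 to 7198439 had 1976 FPKM in fl4 and 1440 FPKM in WT, and the share of its top feature was 80.1% in fl4 and 76.8% in WT, which is the 3.25 points already given.

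Whether whole loci differed between mutant and wild type endosperm was asked of the sums. For each locus the ratio of fl4 to WT was taken as log2((fl4 sum + 1)/(WT sum + 1)), which understates the change of low loci, over the 613 loci that reached 1 FPKM in either library. A difference of at least 2-fold on this scale was counted as a rule of size, for features with FPKM in place of the sum. Folds printed for a single locus or feature are plain ratios of FPKM, without the 1 FPKM added. Among the 613 loci the sum was higher in fl4 by 2-fold or more in 32 and lower by 2-fold or more in 19, and the other 562 (91.7%) differed less. These are 5.22% and 3.1% of the loci, 8.32% in both directions together, where the same rule counts 6.28% of all 34969 spans of at least 1 FPKM as higher and 4.67% as lower, 10.9% together. The share of the merged loci was thus below that of all spans. Among spans with 2 features it was 4.4% higher and 2.93% lower, 7.33% together. Among spans with 1 feature it was 6.62% higher and 4.99% lower, 11.6% together, and among those with 1 feature and no shorter than the shortest merged locus 3.05% higher and 2.29% lower, 5.34% together. The place of the merged loci against the background therefore depended on which spans they were set against.

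The median log2 ratio of the loci was 0.09, and that of all spans was 0.07. Positive ratios outnumbered negative ones, 386 to 227. The middle of the distribution was narrow, with quartiles at -0.13 and 0.28. With the totals of the libraries made equal without the 20 most abundant features, the median locus stood at -0.041, so that the direction of the median depends on the scaling. The 2-fold counts were 28 higher and 21 lower under that scaling. By number of features, 41 of 506 loci with 3 features, 10 of 84 with 4 and 0 of 23 with 5 or more differed 2-fold.

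**Figure D2:**
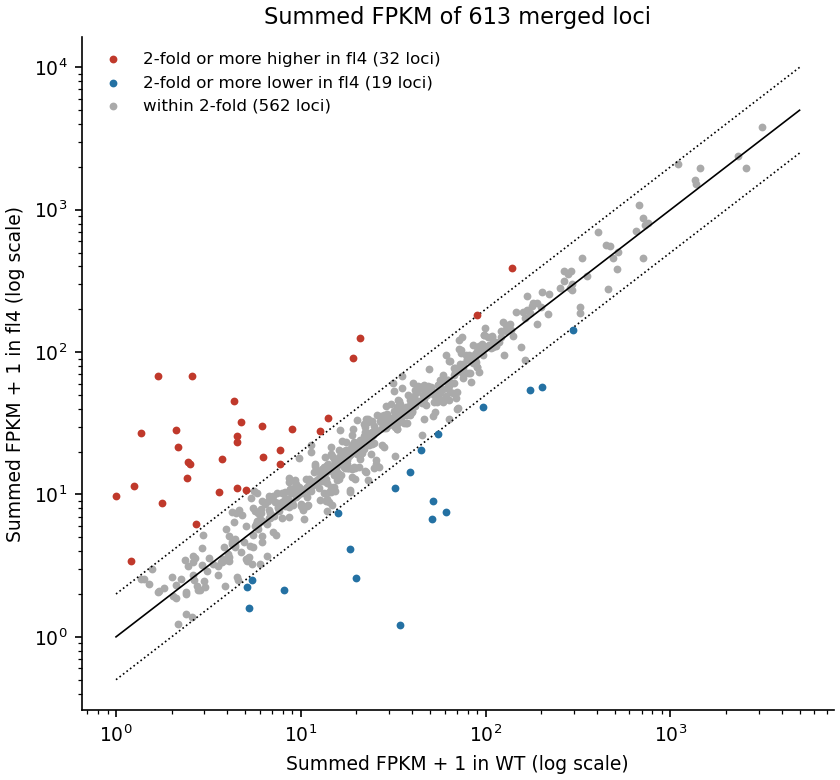
Summed FPKM + 1 of 613 merged loci in fl4 (vertical axis) against WT (horizontal axis), both on log scales. Each point is a locus, the solid line marks equality and the dotted lines 2-fold. The points follow the line, with 32 loci above and 19 below the 2-fold lines.

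The 51 loci with 2-fold differences were spread over the 10 chromosomes, with 10 of 57 loci on chromosome 4, 9 of 73 on chromosome 3 and 1 of 41 on chromosome 9. Of the 10 on chromosome 4, 8 were higher and 2 lower in fl4. The share of 17.5% on chromosome 4 compares with 13.1% for all spans of that chromosome, the highest value among the 10 chromosomes for either measure. A feature at 0 in one library was present in 20 of the 51 loci. Over all 634 loci such a feature was present in 31 loci in fl4 and in 40 loci in WT. With features at 0 left out, 24 loci were 2-fold higher and 14 were 2-fold lower in fl4, of 607 loci. Only 14 of the 51 had at least 10 FPKM in both libraries, 6 of them higher and 8 lower in fl4.

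In many of the 51 loci the 2-fold difference of the sum rested on 1 feature. The feature with the largest difference in FPKM was left out of each of the 51 loci, and the remaining features still differed 2-fold in the same direction in 19 loci, 14 of the 32 higher and 5 of the 19 lower. The 1 FPKM added weighs more on the low sums that remain, which makes a 2-fold difference harder to reach. Counted by features of at least 1 FPKM, 28 loci had exactly 1 feature beyond 2-fold on the side of the sum, 22 had 2 or more, and 1 had none. Some of the 28 had only 1 feature of that level, such as the locus from 154166174 to 154167420 of chromosome 4. For these a count of 2 or more was not possible. In 32 of the 51 loci all features lay on the side of the sum, however small their own difference.

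Features of a locus were not seen to move 2-fold in opposite directions. At least 1 feature of at least 1 FPKM differed 2-fold in 92 loci, with 69 features higher and 52 lower in fl4 among the 1408 features of this level (4.9% and 3.69%, against 6.04% and 4.59% of all features of the series). In 69 of the 92 loci it was a single feature, and in 41 of these 69 the sum of the locus stayed within 2-fold. In the other 23 loci 2 or more features differed, and they went the same way within each locus, all higher in 14 and all lower in 9. None of the 486 loci with at least 2 features of 1 FPKM had a higher and a lower one. Of spans with 2 features 0.0337% did, 1 of 2966. The count depended on the settings, with 3 loci at a pseudocount of 0.1 FPKM and 7 loci at a 1.5-fold threshold.

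In 4 loci every feature was at least 2-fold higher in fl4 on the log2(FPKM + 1) scale. These 4 were picked after their values were seen. No such count is given for other spans, so their number cannot be called high or low. The locus on chromosome 10 from 144552334 to 144557951 also had the largest ratio among loci with 10 FPKM in both libraries, with 124 FPKM in fl4 and 20.01 FPKM in WT, 6.19-fold higher. Its 3 features stood at 95.2, 16.8 and 11.8 FPKM in fl4 and at 18.7, 1.25 and 0.0985 FPKM in WT. The minor features were thus further apart between the libraries than the top one, whose share was 76.9% in fl4 and 93.2% in WT.

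The locus on chromosome 4 from 1078562 to 1091089 held 4 features at 22.2, 17.1, 4.06 and 1.08 FPKM in fl4. In WT the same features stood at 2.74, 0, 0.603 and 0 FPKM, so the second and the fourth are listed at 0 there. The locus on chromosome 1 from 274511841 to 274518322 had 17.6, 4.45, 2.81 and 2.42 FPKM in fl4 and 0.833, 0.264, 0.0192 and 0 FPKM in WT. Its sum was 27.3 FPKM in fl4 and 1.12 FPKM in WT. The fourth locus of this kind, from 49461369 to 49465471 of chromosome 2, kept its proportions. Its features were at 17.7, 10.9 and 4.89 FPKM in fl4 and at 6.60, 4.55 and 1.90 FPKM in WT, with the top share at 52.8% in fl4 and 50.6% in WT.

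Loci of at least 30 FPKM in one library with a difference of 8-fold or more on the log2(sum + 1) scale numbered 5, and were likewise picked after their values were seen. No such count is given for other spans, so the number says nothing about merged loci as a class. Apart from the chromosome 4 locus just described, the 2 higher ones each had most of their fl4 sum in 1 feature listed at 0 in WT. Without that feature the rest of each locus was still 2-fold higher in fl4, with log2 ratios of 1.13 and 1.27. From 269031134 to 269033163 of chromosome 1 the locus had a sum of 66.9 FPKM in fl4 against 0.691 FPKM in WT, of which 64.2 FPKM in fl4 and 0 in WT belonged to a single feature. Its other features were at 1.47 and 1.22 FPKM in fl4 and at 0.0210 and 0.670 FPKM in WT. From 45665835 to 45671290 of chromosome 4 the sums were 66.4 FPKM in fl4 and 1.57 FPKM in WT, with 61.2 FPKM in fl4 and 0 in WT in a single feature. The others there were at 3.92 and 1.29 FPKM in fl4 and at 0.435 and 1.14 FPKM in WT. No fold is given for features listed at 0.

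In the other direction, the locus from 190785736 to 190791496 on chromosome 2 had a sum of 0.205 FPKM in fl4, against 33.3 FPKM in WT. Its main feature was listed at 0 in fl4 and at 29.3 FPKM in WT, and its second feature stood at 0.205 FPKM in fl4 and 3.97 FPKM in WT. The locus from 46204629 to 46210242 of chromosome 1 had 6.51 FPKM in fl4 and 59.9 FPKM in WT. Here no feature was at 0. The main feature stood at 6.42 FPKM in fl4 and 56.4 FPKM in WT, the second at 0.0350 and 3.42 FPKM, and the third was level at 0.0570 and 0.0566 FPKM. One locus was at 0 as a whole in WT, from 105332704 to 105335713 of chromosome 3, with 6.95, 0.980 and 0.820 FPKM in its 3 features in fl4.

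The largest lower sums among loci with 10 FPKM in both libraries each came from 1 feature. The locus on chromosome 5 from 214122496 to 214132628 had 55.6 FPKM in fl4, against 201 FPKM in WT, a log2 ratio of -1.83. One of its 4 features had 1.44 FPKM in fl4 and 151 FPKM in WT, 105-fold lower in fl4. The other features were nearly level, at 35.2, 9.79 and 9.22 FPKM in fl4 and at 30.7, 9.15 and 9.54 FPKM in WT. In the locus from 113433573 to 113471380 on chromosome 3 the main feature had 46.9 FPKM in fl4 and 165 FPKM in WT, while a second was at 5.86 and 6.38 FPKM. The second highest ratio of sums among these loci, from 135642651 to 135643743 of chromosome 7, came from 89.6 FPKM in fl4 and 18.2 FPKM in WT. Its main feature had 86.9 FPKM in fl4 and 16.3 FPKM in WT, and the others 2.05 and 0.641 FPKM in fl4 against 1.37 and 0.551 FPKM in WT.

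How strongly one feature dominated a locus was measured in the 409 loci with at least 10 FPKM in both libraries. The highest feature held a median of 73.8% of the locus in fl4 (quartiles 55.7% and 88.9%) and 71.7% in WT (quartiles 54.9% and 86.8%). It held at least 90% in 89 loci in fl4 and 80 loci in WT, and less than 50% in 57 loci in each library. With 3 features the median was 75.5% in fl4 and 73.3% in WT, with 4 features 67.4% and 66.6%, and with 5 or more 64.7% and 62.8%. The highest feature was the same row of the tables in both libraries in 387 of the 409 loci and a different one in 22 (5.38%, against 3.75% of 2375 spans with 2 features). Features of one locus can be matched between the libraries only by their place in the tables, whose positions run in the same order in both files.

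The top-feature share changed little between the genotypes. The top feature was defined for both libraries as the one with the highest mean share, and its shift as the fl4 share minus the WT share. The shift was less than 5 percentage points in 286 of 409 loci (69.9%) and less than 10 points in 370 (90.5%), and the median absolute shift was 2.75 points. Shares of at least 10 points more in fl4 were found in 24 loci and of at least 10 points less in 15. These are 5.87% and 3.67% of the loci, 9.54% together, where 3.58% and 2.53% of spans with 2 features passed the same limits, 6.11% together. The highest share of a span with 2 features cannot fall below 50%, and its median was 81.4% in fl4 and 80.2% in WT. Among the merged loci shifts were rarer at high shares (given below), so these rates do not compare like with like. Over the 409 loci the top share in fl4 and in WT had a correlation of 0.92, a description across loci that share both libraries.

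**Figure D3:**
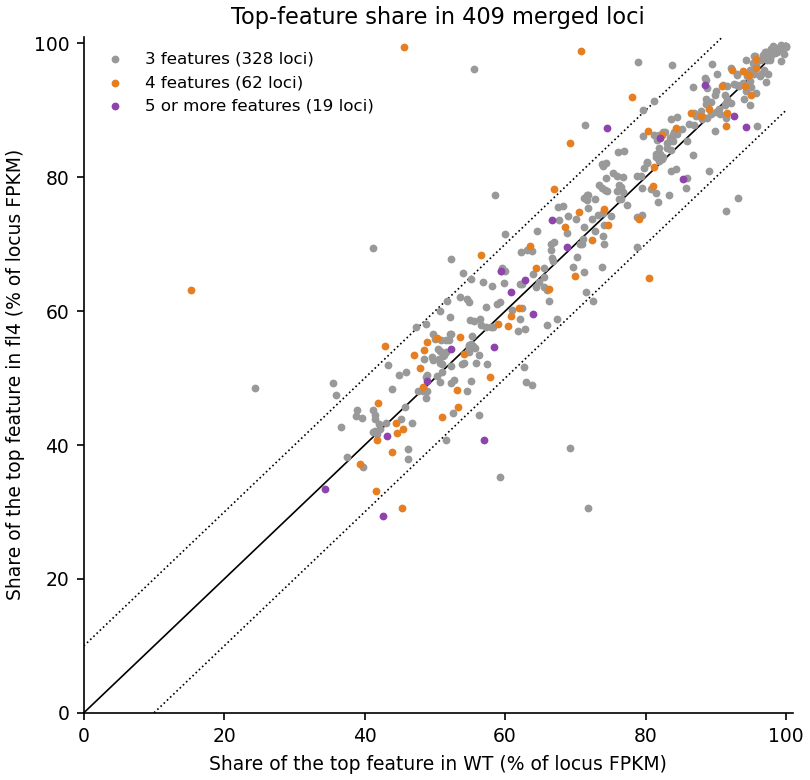
Share of the top feature in fl4 (vertical axis) against WT (horizontal axis), in percent of the locus FPKM, for 409 merged loci coloured by their number of features. The solid line marks equal shares and the dotted lines 10 points, beyond which lie 24 loci above and 15 below.

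Shifts were rare in the most abundant loci. Among the 72 loci with at least 100 FPKM in both libraries 1 shifted by 10 points or more and the median absolute shift was 1.79 points. Among the 161 loci of which the lower library had 30 to 100 FPKM 18 shifted (11.2%), 13 with a higher share in fl4 and 5 with a lower one, and among the 176 loci of 10 to 30 FPKM 20 shifted (11.4%), 11 higher and 9 lower. Spans with 2 features shifted in 2.57%, 4.01% and 8.21% of cases at the same levels. Loci with 4 features passed the limit in 10 of 62 cases, those with 3 in 26 of 328 and those with 5 or more in 3 of 19. Where the top feature held 90% or more on average, 1 of 86 loci shifted, and where it held less than 50%, 10 of 56 did. With no replicate, a shift cannot be set against the spread between plants.

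The shift leaned towards a higher share of the top feature in fl4. It was positive in 259 of 409 loci (63.3%), with a median of 1.11 points. Among spans with 2 features it was positive in 58.1%, with a median of 0.32 points. The top feature of the 409 loci had a median log2 ratio of 0.12 and the sum of the other features one of 0.02. These ratios have 1 FPKM added, which draws those of low features towards 0. Ratios on this scale were higher for abundant features in general. Spans with 1 feature had a median log2 ratio of 0.03 at 1 to 10 FPKM, 0.12 at 10 to 100 FPKM and 0.18 at 100 FPKM or more. The part of this trend in the lean of the shares was not tested. Shifts of 10 points numbered 28 higher and 10 lower with the top feature taken from fl4, and 18 higher and 18 lower with it taken from WT, and the median shift was 1.28 points with the fl4 choice and 0.854 points with the WT choice.

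**Figure D4:**
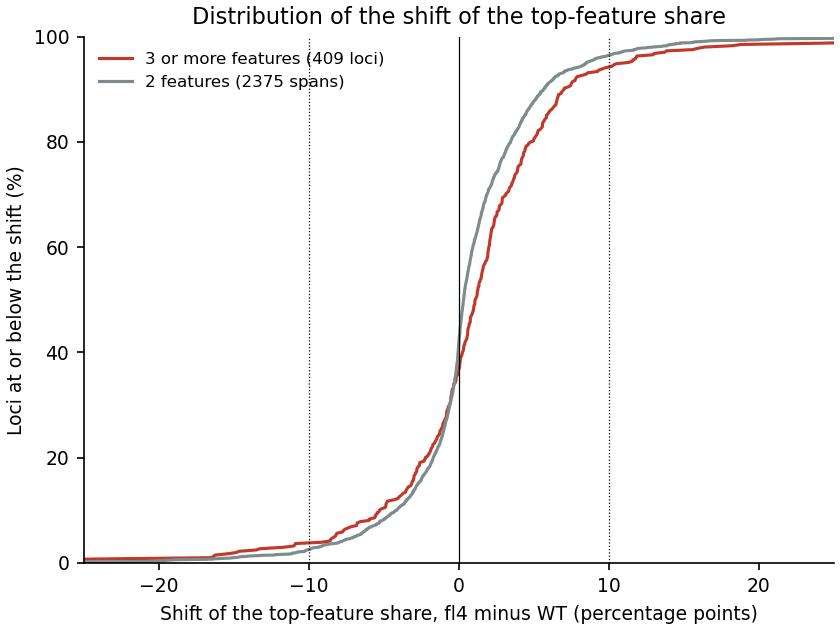
Cumulative share of loci (vertical axis, percent) at or below a given shift of the top-feature share, fl4 minus WT in percentage points (horizontal axis), for 409 merged loci and 2375 spans with 2 features. Shifts beyond 25 points are not drawn. At a shift of 0 both curves lie below 50%, since 63.3% and 58.1% of shifts were positive, and the merged loci have the wider spread.

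Loci whose top share was most above WT in fl4 shared one pattern. In all 5 the top feature itself differed by less than 2-fold, and another feature was far lower in fl4. The largest shift, from 182279430 to 182288526 of chromosome 4, gave the top feature 99.4% of the locus in fl4 and 45.6% in WT. That feature stood at 25.5 FPKM in fl4 and 24.6 FPKM in WT, whereas the others were listed at 0, 0 and 0.147 FPKM in fl4 and at 18.7, 10.2 and 0.456 FPKM in WT. The second was the chromosome 5 locus with the feature of 1.44 FPKM in fl4 and 151 FPKM in WT, where the level feature held 63.2% in fl4 and 15.3% in WT. In WT the highest feature was the one of 151 FPKM, with 75.4% of the locus. The highest share of that locus was thus lower in fl4 than in WT.

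On chromosome 7 from 171749016 to 171788887 the top feature had 14.1 FPKM in both libraries, and a second feature was listed at 0 in fl4 and at 9.98 FPKM in WT. On chromosome 2 from 172843793 to 172863857 the top feature had 17.5 FPKM in fl4 and 18.2 FPKM in WT, and a second one 7.61 FPKM in fl4 and 25.1 FPKM in WT. No feature of that locus was at 0. Its second feature was the highest in WT, with 56.8% of the locus, whereas the top feature was the highest in fl4, with 69.5%. On chromosome 2 from 124057199 to 124083556 the top feature had 69.7 FPKM in fl4 and 56.3 FPKM in WT, with a second one listed at 0 in fl4 and at 22.1 FPKM in WT. A feature at 0 in one library was thus present in 3 of these 5 loci, but in only 4 of all 39 shifted loci.

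In the 5 loci whose top share was most below WT, 3 had a lower top feature beside level neighbours. On chromosome 6 from 161554682 to 161619047 the feature had 6.01 FPKM in fl4 and 31.6 FPKM in WT, and its share was 30.6% in fl4 and 71.8% in WT. Its neighbours were at 7.12 and 6.49 FPKM in fl4 and at 5.98 and 6.40 FPKM in WT. From 190083637 to 190087587 of chromosome 2 the top feature had 4.79 FPKM in fl4 and 12.5 FPKM in WT, and from 23781952 to 23788013 of chromosome 3 it had 10.1 FPKM in fl4 and 34.7 FPKM in WT. The locus from 170359321 to 170386361 of chromosome 8 had an almost equal sum, 18.2 FPKM in fl4 and 17.8 FPKM in WT, within which 2 features traded places. One had 7.20 FPKM in fl4 and 12.3 FPKM in WT, and the other 9.71 FPKM in fl4 and 4.49 FPKM in WT. The fifth was the chromosome 10 locus with every feature higher.

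**Figure D5:**
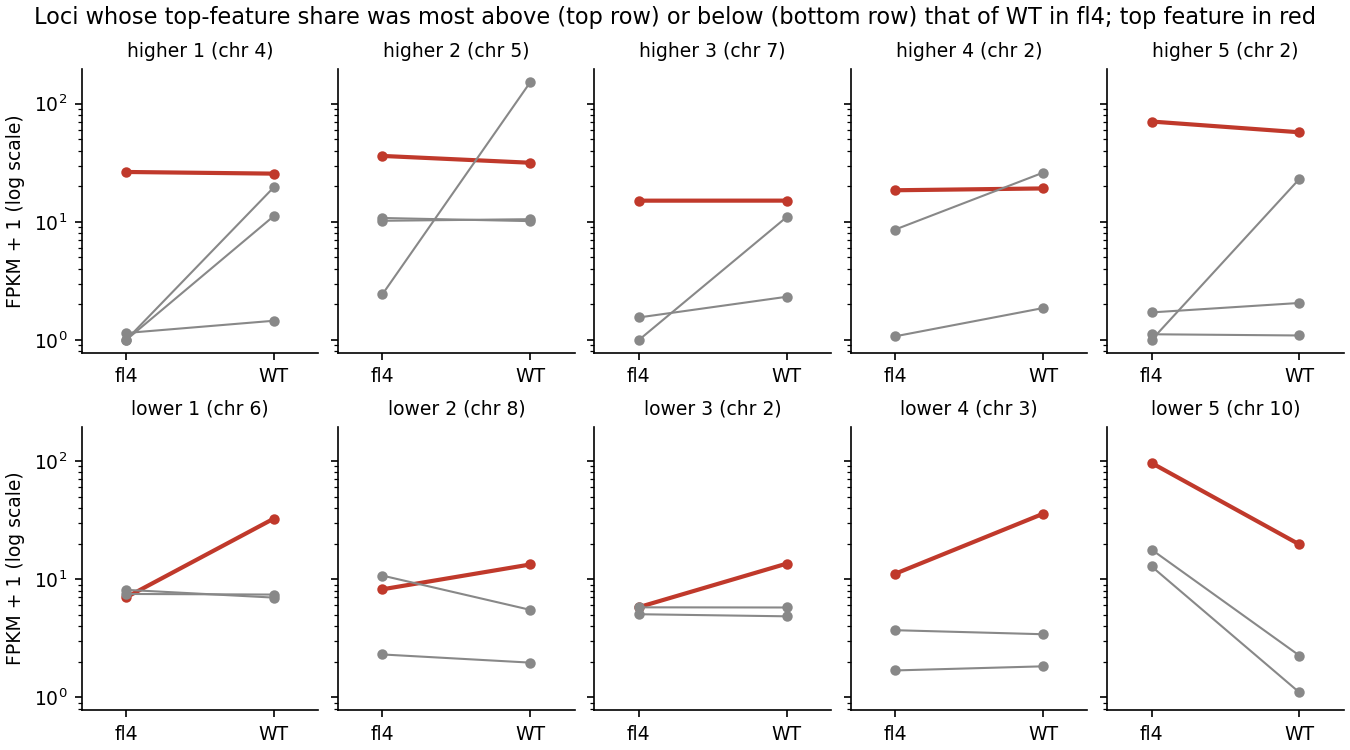
FPKM + 1 (log scale) of each feature in fl4 (left point) and WT (right point) for the 5 loci with the top-feature share most above WT (top row) and the 5 most below (bottom row). The top feature is red and the others grey. In the top row the red line is close to flat and a grey line is lower in fl4, and in the bottom row the red line is lower in fl4 in panels 1 to 4.

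Of the 39 shifted loci 6 (15.4%) also differed 2-fold in their sum, against 8 of the 370 others (2.16%). The share and the sum are made from the same values, so no test of this overlap was made. The sum was lower in fl4 in 24 of the 39 shifted loci (61.5%), which were 14 of the 24 with a higher share and 10 of the 15 with a lower one, and in 116 of the 370 others (31.4%). A different highest feature in the 2 libraries was found in 11 of the 39.

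Only 2 of the 22 loci with a different highest feature reached 100 FPKM in both libraries, and in both the leading features were close to each other. From 215212968 to 215240759 of chromosome 4 the features had 69.4 and 59.3 FPKM in fl4 and 65.7 and 72.8 FPKM in WT. From 19052727 to 19090250 of chromosome 7 they had 40.1 and 35.7 FPKM in fl4 and 34.7 and 44.9 FPKM in WT, beside another feature of 29.3 FPKM in fl4 and 26.5 FPKM in WT.

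The 8 loci with 6 or more features covered 29098 to 166694 bp, and none differed 2-fold in its sum on the log2(sum + 1) scale. The locus with 8 features, on chromosome 7 from 165824938 to 165909567, had a sum of 153 FPKM in fl4, against 128 FPKM in WT. Its features of at least 1 FPKM stood at 96.3, 21.7, 19.3, 7.48 and 7.24 FPKM in fl4 and at 78.1, 19.9, 16.2, 7.20 and 6.82 FPKM in WT, all higher in fl4 and in the same order. The longest locus of all, from 47573765 to 47740458 of chromosome 6, had 6 features and was led by one of 39.1 FPKM in fl4 and 53.6 FPKM in WT.

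A single feature stood out within the locus from 186657243 to 186710764 of chromosome 4. It had 16.2 FPKM in fl4 and 1.96 FPKM in WT, 8.26-fold higher, while the other features of at least 5 FPKM were at 12.4 and 9.96 FPKM in fl4 and at 12.7 and 10.5 FPKM in WT. It led the locus in fl4 with 38.3% and held 6.59% in WT. The other 4 loci with 6 features had sums of 13.8 to 79.1 FPKM in fl4 and 12.5 to 73.7 FPKM in WT, with log2 ratios of 0.02 to 0.13. The locus with 7 features, from 209939508 to 209971549 of chromosome 5, was low, with 1.35 FPKM in fl4 and 0.507 FPKM in WT.

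The ratios of the features of one locus were also set beside each other. In the 190 loci with at least 2 features of 10 FPKM or more in either library, the range of the log2 ratios within a locus had a median of 0.30. It was below 0.5 in 138 loci (72.6%) and at least 1 in 21. The 447 features had an SD of the log2 ratio of 0.75 about their overall mean and of 0.58 within their locus. For the 409 loci, the log2 ratio of the top feature and that of the other features summed had a correlation of 0.26, a description across loci that share both libraries.

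A few features had the same values as a feature elsewhere, which limits what can be read from them singly. In 3 loci a pair of features had identical values in both libraries. Of 1964 features above 0 in both libraries, 13 (0.66%), in 12 loci, had the same pair of values as a feature at another position. One of them reached 10 FPKM (named after its values were seen), with 46.3 FPKM in fl4 and 10.4 FPKM in WT, in the locus from 100803097 to 100806667 of chromosome 3. Beside it the main feature of that locus stood at 342 FPKM in fl4 and 126 FPKM in WT, and the locus as a whole at 391 FPKM in fl4 and 138 FPKM in WT, 2.84-fold higher.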

How the data were processed

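RNA of maize endosperm was profiled in 1 fl4 and 1 WT library. The deposited values are FPKM, computed by the authors per the file headers. The submitters' processing notes name Bowtie 0.12.2. No source used here names the program that quantified the features, the build, the annotation or any pooling of triplicates. Each file has 65535 rows, with the same position in each row of both files. Whether these are all rows of the original listing is not known. The first and last feature of a merged locus lay a median of 31418.5 rows apart. Any missing rows could therefore lower the number of features counted for a position, and change its sum and shares. Sequencing depth is unknown, so the precision of low values is unknown. The replicate number given to each library is only a name.

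Rows were grouped by exact position, and FPKM was summed and divided into shares. Sums used a pseudocount of 1 FPKM, a minimum of 1 FPKM in either library and a 2-fold limit. Shares used a minimum of 10 FPKM in both libraries and a limit of 10 percentage points. No p-value is given. The calculation was tested on simulated data. Python 3.11.15, numpy 2.4.6, pandas 2.3.3, scipy 1.17.1 and matplotlib 3.10.9 were used.

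Loci described singly were the 10 most abundant, the 2 highest and 2 lowest ratios of sums, the 5 highest and 5 lowest shifts, loci with 6 or more features, and loci of 100 FPKM with a different highest feature or at 0 in 1 library. Others are said to be picked after their values were seen. The members and rules were chosen with earlier results of these data known. Alternatives covered the pseudocount, minimum, limits, scaling, features at 0, short spans and the definition of the top feature. Rows outside chromosomes 1 to 10 were left out. No sequence is printed, because no genome of the files' build was used.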

Additional observations from a re-analysis of the deposited data

How the results depend on the processing

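Alternatives gave 81 values, of which 61 were close to the reported one, 19 were not and 1 had the opposite sign. A count was called close within 1.5-fold, and a median within the 95% interval of the reported median taken over loci. Some of the 61 could not differ, such as the 2-fold counts without a minimum sum and the loci with opposite features at 4-fold. The tally is therefore no measure of how firm the results are. The value of opposite sign was the median log2 ratio of the sums, 0.09. It became -0.041 when totals without the 20 most abundant features were made equal and 0.014 with the median of all features set to 0, by construction of these scalings. The 32 higher and 19 lower loci became 64 and 53 at 1.5-fold and 19 and 6 at 4-fold, and the lower ones 12 with a pseudocount of 5 FPKM. The 24 loci with a higher and 15 with a lower top share became 81 and 42 at 5 points and 6 and 3 at 20 points. With at least 1 FPKM in both libraries (593 loci) they became 54 and 55, with 61 instead of 22 different highest features, and with at least 50 FPKM (150 loci) 5 and 4, with 4 different highest features and a median shift of 0.66 points. With the top feature taken from fl4 they became 28 and 10, and with it taken from WT 18 and 18. The median shift, 1.11 points, was 1.28 with the fl4 choice, 0.854 with the WT choice and 1.05 at the minimum of 1 FPKM. Loci with opposite features numbered 0, and 3 with a pseudocount of 0.1 FPKM and 7 at 1.5-fold. Counting features with identical values once was chosen after seeing the data and moved no result by 1.5 times. Spans under 300 bp did not occur among the loci, so that limit changed nothing. No paired analysis was possible because there is 1 library of each genotype, and no replicate could be left out. What depth limits cannot be given, since the files hold no counts.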

Other observations

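Some features of merged loci carried the values of organelle features. In the locus from 209939508 to 209971549 of chromosome 5, a feature at 0.532 FPKM in fl4 and 0 in WT had the same values as a feature of the chloroplast genome, and another, at 0.171 FPKM in fl4 and 0.0219 FPKM in WT, had the same fl4 value as a second feature of the same chloroplast position, which is listed at 0 in WT. These 2 features held 52.1% of the locus in fl4. In the locus from 234729687 to 234734594 of chromosome 1, a feature at 0.125 FPKM in fl4 and 0.214 FPKM in WT and another at 0.248 FPKM in fl4 and 0.167 FPKM in WT had the same values as 2 features of 1 mitochondrial position. In the locus from 6956310 to 6962801 of chromosome 9, a feature at 0.786 FPKM in fl4 and 0.396 FPKM in WT had the values of another mitochondrial feature. Pairs of values shared with another position were found for 13 of 1964 features of merged loci and for 797 of 61304 rows in all, counting rows above 0 in both libraries. No source used here says how reads that match several positions were handled.

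Outside chromosomes 1 to 10, 5 positions were listed for 3 or more rows, with sums of 0.491 to 4.53 FPKM in fl4 and 0.0405 to 4.54 FPKM in WT. Of these 2 were chloroplast, 2 mitochondrial and 1 a position that reads as a decimal number.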
